A study of Mus musculus with 4 samples.

Results

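The 41 genes described here encode the enzymes, regulators and carriers of sphingolipid and barrier ceramide metabolism, with the ceramide synthases themselves left out. Members were picked by symbol, not by a threshold on measured values, though with earlier results of these data known, and all 41 were found among the 32479 genes of the count matrices. Levels were read per mouse in cell types gated by marker genes, none of which is a member, in mouse epidermis at postnatal day 19 (P19).

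Sphingolipid synthesis starts with serine palmitoyltransferase (SPT), which joins serine to a fatty acyl-CoA and is held back by the ORMDL proteins. Its product is reduced, acylated by ceramide synthases and desaturated to ceramide, which is then turned into sphingomyelin or glucosylceramide, or broken down through sphingosine and sphingosine-1-phosphate (S1P). In the outer epidermis, ceramides with ultra-long acyl chains carry an extra linoleate, are packed into lamellar bodies and are processed by lipoxygenases into the water barrier and the lipid envelope of corneocytes. Sebaceous glands make their own long-chain lipids for sebum.

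The data were single-cell transcriptomes (BD Rhapsody) of dissociated back skin epidermis from 4 female C57BL/6N mice, 1 library per mouse. All 4 mice carried floxed CerS4 alleles (CerS4fl/fl). The 2 control mice lacked Cre (K14Cre-), and the 2 CerS4epi-/- mice carried K14Cre, a Cre driven by the keratin-14 promoter, which is active in basal keratinocytes and thereby reaches all their descendants in the interfollicular epidermis (IFE), hair follicle and sebaceous gland but not T cells or Langerhans cells. Controls thus lacked the Cre transgene as well as the deletion.

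Total counts per library ranged from 39231945 to 53106317, and 7567 to 9086 barcodes per mouse held at least 1200 counts with at most 20% mitochondrial counts, giving 34150 cells. Median counts per cell were 3266.5 to 3884, and the median mitochondrial share was 8.56 to 8.66% in control and 9.68 to 9.94% in CerS4epi-/- mice. Mice of the same genotype shared 0 cell barcodes, where 77.1 and 87.1 shared barcodes would arise among independent libraries, while mice of different genotypes shared 64 to 102. This is the pattern of 1 common cell capture per genotype, so genotype and capture cannot be told apart in any difference between genotypes below. With 2 mice per genotype an exact permutation test cannot go under p = 0.333, so all adjusted p-values come from the edgeR quasi-likelihood test fitted across all genes with Benjamini-Hochberg adjustment, at a threshold of 0.05. Gated cells numbered 2945 to 3536 per mouse in IFE basal, 1480 to 2995 in IFE spinous, 672 to 1225 in IFE granular, 522 to 1111 in suprabasal upper hair follicle (uHF), 38 to 299 in basal uHF, 75 to 298 in outer bulge, 41 to 57 in inner bulge, 69 to 146 in T cells and 53 to 79 in Langerhans cells. IFE basal cells carried IFE basal markers at 19637 to 22307 CPM and IFE granular cells at 330 to 374 CPM, T cells carried T cell markers at 22038 to 25654 CPM, and melanocyte markers stayed at or below 4.19 CPM in these classes. The outer bulge gate took cells by outer bulge markers, which reached 2163 to 4098 CPM, but the same cells carried uHF markers at 34795 to 43157 CPM, as in the suprabasal uHF (24937 to 47878 CPM). Outer bulge below therefore names the gate, and its cells cannot be read as bulge stem cells alone. Sebaceous gland cells numbered 12 and 3 in control and 28 and 35 in CerS4epi-/- mice and were not tested. Levels of single genes in a class are CPM, a count divided by the TMM-scaled library total in units of 1e6. Marker lists, free RNA and the finer steps described below are CPM of the plain total, without TMM scaling. Each gene was compared only with itself across cells, since the counts carry no length correction.

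The targeted gene was read first. In sebaceous gland cells Cers4 measured 3042 and 2005 CPM in the control mice and 297 and 434 CPM in the CerS4epi-/- mice. In outer bulge cells it measured 6.37 and 20.1 against 1.66 and 1.47 CPM, from 3 and 7 against 3 and 2 counts. In inner bulge cells it measured 35.8 and 28.9 against 18.5 and 14.2 CPM, from 10 and 6 against 5 and 4 counts. Barcodes with too few counts to be cells, which hold mostly free RNA, had Cers4 at 4.71 and 9.1 against 10.7 and 12.8 CPM. The few bulge counts therefore give little check of the deletion there. T cells, which do not express keratin-14, gave overlapping values of 84.3 and 53.2 against 67.3 and 88.4 CPM. In the IFE layers Cers4 stayed at or below 1.69 CPM in every mouse, so the IFE itself gives little check of the deletion.

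The promoters of 4 members are shown: Smpd3 gave the largest rise of any member in the granular layer, Alox12b and Aloxe3 are neighbouring genes that rose there together, and Sptlc3 was lower in 4 classes of CerS4epi-/- cells. Each run is the 300 bases before the annotated start in GRCm39, read 5′ to 3′ on the gene's strand, at chr11:69016422-69016721 (+) for Aloxe3, chr11:69047515-69047814 (+) for Alox12b, chr8:107064671-107064970 (-) for Smpd3 and chr2:139335533-139335832 (+) for Sptlc3. Capitals mark matches to TGANTCA, searched on both strands. This is a loose form of the consensus of AP-1 factors, with any base at the centre where the consensus has C or G.
Aloxe3: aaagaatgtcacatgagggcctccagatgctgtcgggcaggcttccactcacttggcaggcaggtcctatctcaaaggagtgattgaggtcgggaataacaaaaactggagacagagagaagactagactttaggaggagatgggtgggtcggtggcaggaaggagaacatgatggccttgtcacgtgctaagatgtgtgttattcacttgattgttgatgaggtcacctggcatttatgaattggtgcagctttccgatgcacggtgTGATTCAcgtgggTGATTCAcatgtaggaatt
Alox12b: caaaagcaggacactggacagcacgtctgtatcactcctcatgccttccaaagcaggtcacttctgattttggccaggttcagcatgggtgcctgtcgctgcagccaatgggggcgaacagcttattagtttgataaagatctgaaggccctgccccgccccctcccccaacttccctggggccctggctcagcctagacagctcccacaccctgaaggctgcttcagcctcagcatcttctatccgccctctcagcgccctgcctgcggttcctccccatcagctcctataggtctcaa
Smpd3: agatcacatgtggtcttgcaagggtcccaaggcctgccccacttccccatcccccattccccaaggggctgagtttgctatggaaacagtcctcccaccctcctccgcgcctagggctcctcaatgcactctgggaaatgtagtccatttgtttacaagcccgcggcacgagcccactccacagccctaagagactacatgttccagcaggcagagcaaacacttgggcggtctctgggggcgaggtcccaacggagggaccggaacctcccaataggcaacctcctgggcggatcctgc
Sptlc3: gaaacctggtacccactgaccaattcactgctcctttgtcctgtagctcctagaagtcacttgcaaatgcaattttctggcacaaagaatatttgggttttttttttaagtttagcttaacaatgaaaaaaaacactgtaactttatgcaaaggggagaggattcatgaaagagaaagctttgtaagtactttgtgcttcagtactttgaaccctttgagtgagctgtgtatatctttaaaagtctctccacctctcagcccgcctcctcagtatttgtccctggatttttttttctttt
Aloxe3 held 2 matches, 32 to 26 and 19 to 13 bases before the start, and the other 3 shown held none. Both matches read TGATTCA, with T at the centre, so they match the loose form only. TGANTCA was present in 1606 of 21757 promoters of this length (7.38%) and in 4 of the 41 members (9.76%), namely Aloxe3, Asah1, Psap and Sphk1. AACCGGTT, the core bound by grainyhead-like factors, was present in 27 promoters (0.124%) and in 0 of the 41. These are letter matches in a short window only. Aloxe3 and Alox12b, the 2 epidermal lipoxygenases of the list, lie 1530 bases apart on chromosome 11 on the same strand, and Asah2 and Sgms1 lie 11876 bases apart on chromosome 19, also on 1 strand. The next closest pair, Psap and Sgpl1 on chromosome 10, lie 796040 bases apart.

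Most members rose as keratinocytes left the basal layer and again as they became granular. Of 39 members tested, 30 were higher and 2 lower in IFE spinous than in IFE basal cells, where 29.9% of all 12622 genes tested were called higher and 31% lower (60.9% in all). A further step up was found for 28 members in IFE granular against IFE spinous cells, with 6 lower, where 37.4% of all genes were called higher and 37.9% lower (75.3% in all). The median log2 fold change of the members was 1.25 and 1.28 at the spinous and granular steps, against -0.01 and -0.03 for all genes. Sptssb and Fa2h were too low for these tests, with Sptssb at most 1.53 CPM in any IFE layer of any mouse. Layers were compared within each mouse, with 31 to 32 members called at the spinous and 33 to 35 at the granular step when any 1 mouse was left out, and 34 and 37 in the control mice alone.

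The acylceramide and envelope genes rose at both steps, all 7 of 7. Alox12b, the 12R-lipoxygenase that oxidizes linoleate in acylceramide, measured 5.39 to 6.63 CPM in IFE basal, 46.7 to 57.8 CPM in IFE spinous and 1756 to 2086 CPM in IFE granular cells across the 4 mice. Its ranges did not overlap between layers, and the log2 fold change was 3.04 ± 0.23 (SE) at the spinous and 5.45 ± 0.22 at the granular step (adjusted p = 1.93e-12 and 1.89e-18). Aloxe3, which acts next to Alox12b in the same pathway, rose by 1.63 ± 0.19 log2 units and 4.41 ± 0.18. Sdr9c7, a dehydrogenase acting on the oxidized acylceramide, rose by 2.77 ± 0.21 log2 units and 5.62 ± 0.19. For the earlier enzymes the larger value was that of the spinous step: Cyp4f39, the omega-hydroxylase of ultra-long acyl chains, rose by 4.72 ± 0.19 log2 units and then 2.04 ± 0.13, and Pnpla1, the transacylase that attaches linoleate, by 3.17 ± 0.14 and then 2.84 ± 0.11. Abca12, the lamellar body lipid transporter, rose by 2.55 ± 0.12 log2 units and 2.72 ± 0.11. Abhd5, a partner of Pnpla1, rose by 1.82 ± 0.10 log2 units and only 0.41 ± 0.10.

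Among the genes of fatty acid supply, Elovl4, which builds the ultra-long acyl chains, rose from 22.6 to 31.2 CPM in IFE basal to 990 to 1121 CPM in IFE spinous cells, a log2 fold change of 5.22 ± 0.28 (adjusted p = 1.44e-15), and by 1.28 ± 0.24 at the granular step. Elovl1, an elongase of very long chains, turned up later, by 2.09 ± 0.20 log2 units and then 3.91 ± 0.21, reaching 2331 to 2878 CPM in IFE granular cells. Slc27a4, an acyl-CoA synthetase and fatty acid transporter, rose by 1.28 ± 0.13 log2 units and 2.38 ± 0.12. Elovl7 rose by 1.24 ± 0.17 log2 units at the spinous step and did not pass at the granular step (-0.30 ± 0.17, adjusted p = 0.110).

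The genes that start the pathway rose early. At the spinous step Sptlc3, a catalytic SPT subunit with a broad range of acyl-CoA substrates, rose by 3.13 ± 0.22 log2 units, Sptssa, the small activating subunit, by 1.75 ± 0.13, and Sptlc1, the shared subunit, by 1.25 ± 0.11. At the granular step Sptlc1, Sptlc2 and Sptssa rose by a further 1.18 ± 0.10 log2 units, 1.03 ± 0.07 and 1.00 ± 0.13, while Sptlc3 gave 0.35 ± 0.19 (adjusted p = 0.0992). Of the SPT inhibitors, Ormdl2 rose by 1.29 ± 0.10 log2 units and 1.01 ± 0.10 and Ormdl1 by 0.71 ± 0.10 and 1.57 ± 0.09, whereas Ormdl3 passed at neither step. Kdsr, the reductase that follows SPT, rose by 1.03 ± 0.11 log2 units and 1.05 ± 0.11. Degs1, the ceramide desaturase, rose by 1.23 ± 0.13 log2 units and then fell by 1.19 ± 0.13, whereas Degs2, which makes phytoceramide, rose by 4.58 ± 0.51 at the granular step from a count near 0. Averaged over the granular layer, Degs1 (59.2 to 69.2 CPM) was back in the range of the basal layer (53.8 to 94.6 CPM). Over the finer steps described below it fell within the granular layer. It measured 92.6 to 115 CPM in the first granular step and 2.55 to 7.02 CPM in the last.

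Head group genes went in both directions. Ugcg, the glucosylceramide synthase, rose by 1.24 ± 0.18 log2 units and 3.69 ± 0.16, and Sgms1, a sphingomyelin synthase, by 1.27 ± 0.08 and 1.74 ± 0.08. Psap, the precursor of the saposins that help lysosomal glucosylceramide breakdown, measured 468 to 504 CPM in IFE basal, 286 to 324 CPM in IFE spinous and 21.7 to 35.9 CPM in IFE granular cells. It fell by 0.68 ± 0.16 log2 units and then by 3.13 ± 0.18 (adjusted p = 4.17e-15), against the direction of most members. Cert1, the ceramide transfer protein, changed by less than 1 at either step, and Sgms2 passed at neither.

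The sphingomyelinases had the sharpest switch. Smpd3, the neutral enzyme, measured 1.82 to 3.69 CPM in IFE basal and spinous cells of all mice and 326 to 470 CPM in IFE granular cells, a log2 rise of 7.64 ± 0.18 (adjusted p = 1.42e-23). Smpd1, the acid enzyme, rose by 0.47 ± 0.15 log2 units and then 4.36 ± 0.15, while Smpd2 passed at neither step. The ceramidases split by enzyme: Asah2 rose by 2.83 ± 0.19 log2 units and 3.57 ± 0.17 and Asah1, the lysosomal acid ceramidase, by 2.89 ± 0.11 at the granular step only. Acer1, the alkaline ceramidase of differentiated keratinocytes, rose by 5.32 ± 0.20 log2 units at the spinous step (adjusted p = 8.24e-19) and fell by 0.39 ± 0.16 at the granular step. Acer3 rose by 1.11 ± 0.10 log2 units and fell by 0.46 ± 0.10, and Acer2 fell at both steps, by 1.07 ± 0.19 and 1.48 ± 0.26. In S1P turnover all 5 members were higher in granular cells: Sgpp2 by 3.87 ± 0.40 log2 units, Sphk1 by 2.01 ± 0.13, Sgpl1, the lyase that ends the pathway, by 1.84 ± 0.17, Sphk2 by 1.20 ± 0.09 and Sgpp1 by 1.05 ± 0.12. The kinases Sphk1 and Sphk2 had already risen by 2.59 ± 0.15 log2 units and 1.37 ± 0.09 at the spinous step, and the phosphatase Sgpp1 by 2.22 ± 0.13.

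**Figure D1:**
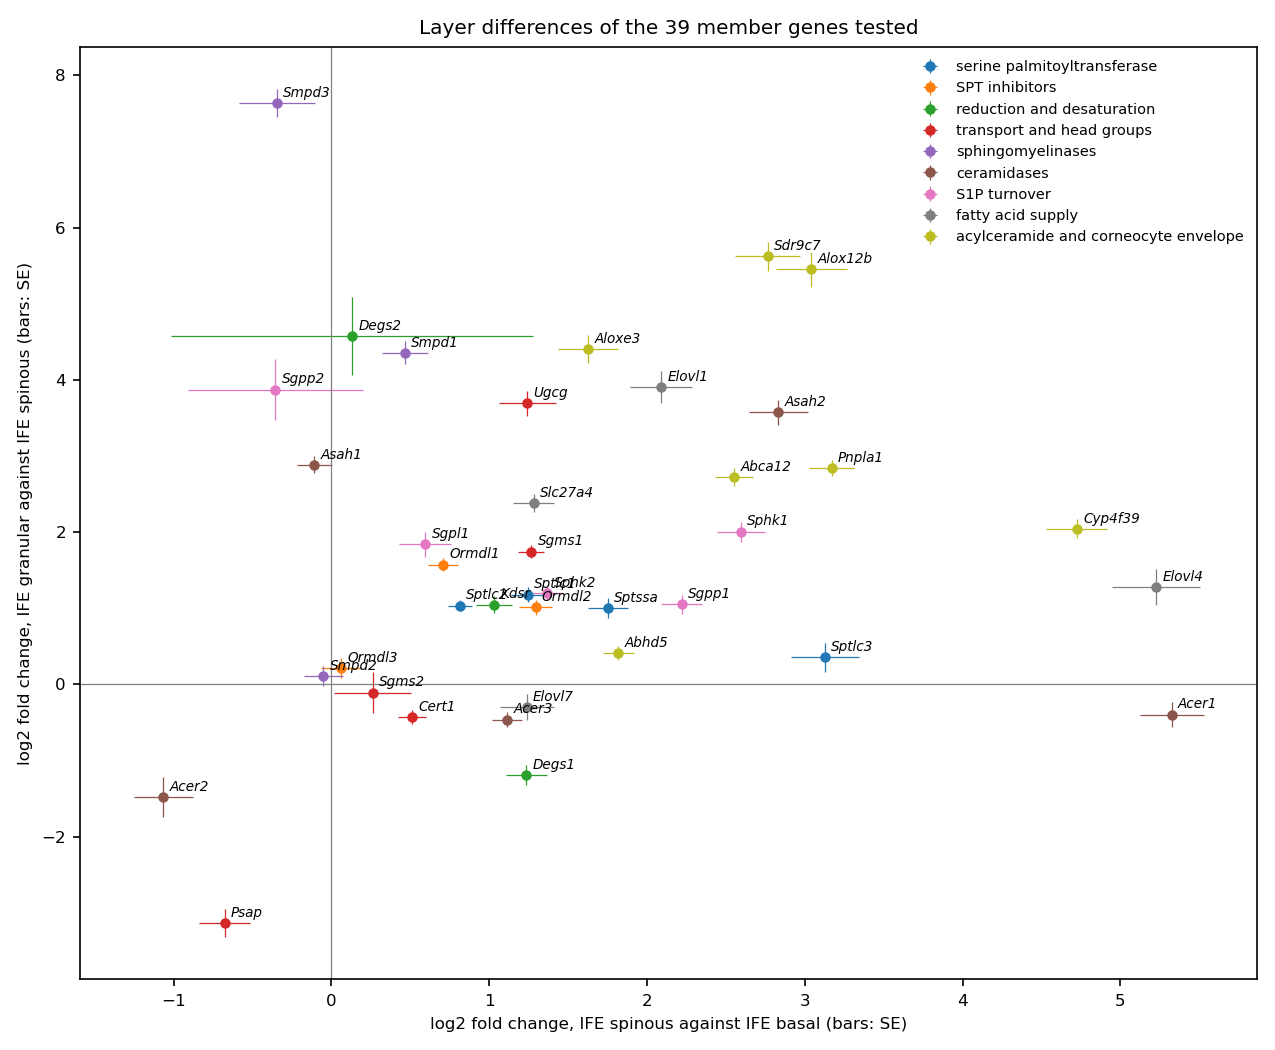
Each point is 1 of 39 member genes, with the log2 fold change of IFE spinous against IFE basal cells on the horizontal and of IFE granular against IFE spinous cells on the vertical axis; bars are the SE of the fit over 4 mice, and colours are roles. Most members lie in the upper right, Smpd3 is at 7.64 on the vertical axis, and Psap at -3.13.

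Finer steps showed the order within the IFE. Cells were placed in 8 steps by the ratio of spinous to basal markers and then by the rate of granular markers, with 153 or more cells per step and mouse, and each step was given as CPM of its own total. In all 4 mice alike, 12 members peaked in the last step (Ormdl1, Ugcg, Sgms1, Smpd3, Asah1, Sgpl1, Slc27a4, Pnpla1, Abca12, Alox12b, Aloxe3 and Sdr9c7), and 5 in the step before it (Smpd1, Asah2, Sgpp1, Elovl1 and Cyp4f39). Ormdl2, Kdsr and Sphk1 peaked in the first granular step, Acer1 and Abhd5 just before it, and Psap and Acer2 in basal cells. For the other 17 members the peak step differed between mice. Acer1 rose from 5.72 to 10.8 CPM in basal cells to 356 to 409 CPM near the granular border and was down to 6.64 to 8.14 CPM in the last step, while Asah1 at that last step was at its own highest value. The transcript counts of the last step are a share of a total that changes with differentiation, so a peak is a peak in share.

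**Figure D2:**
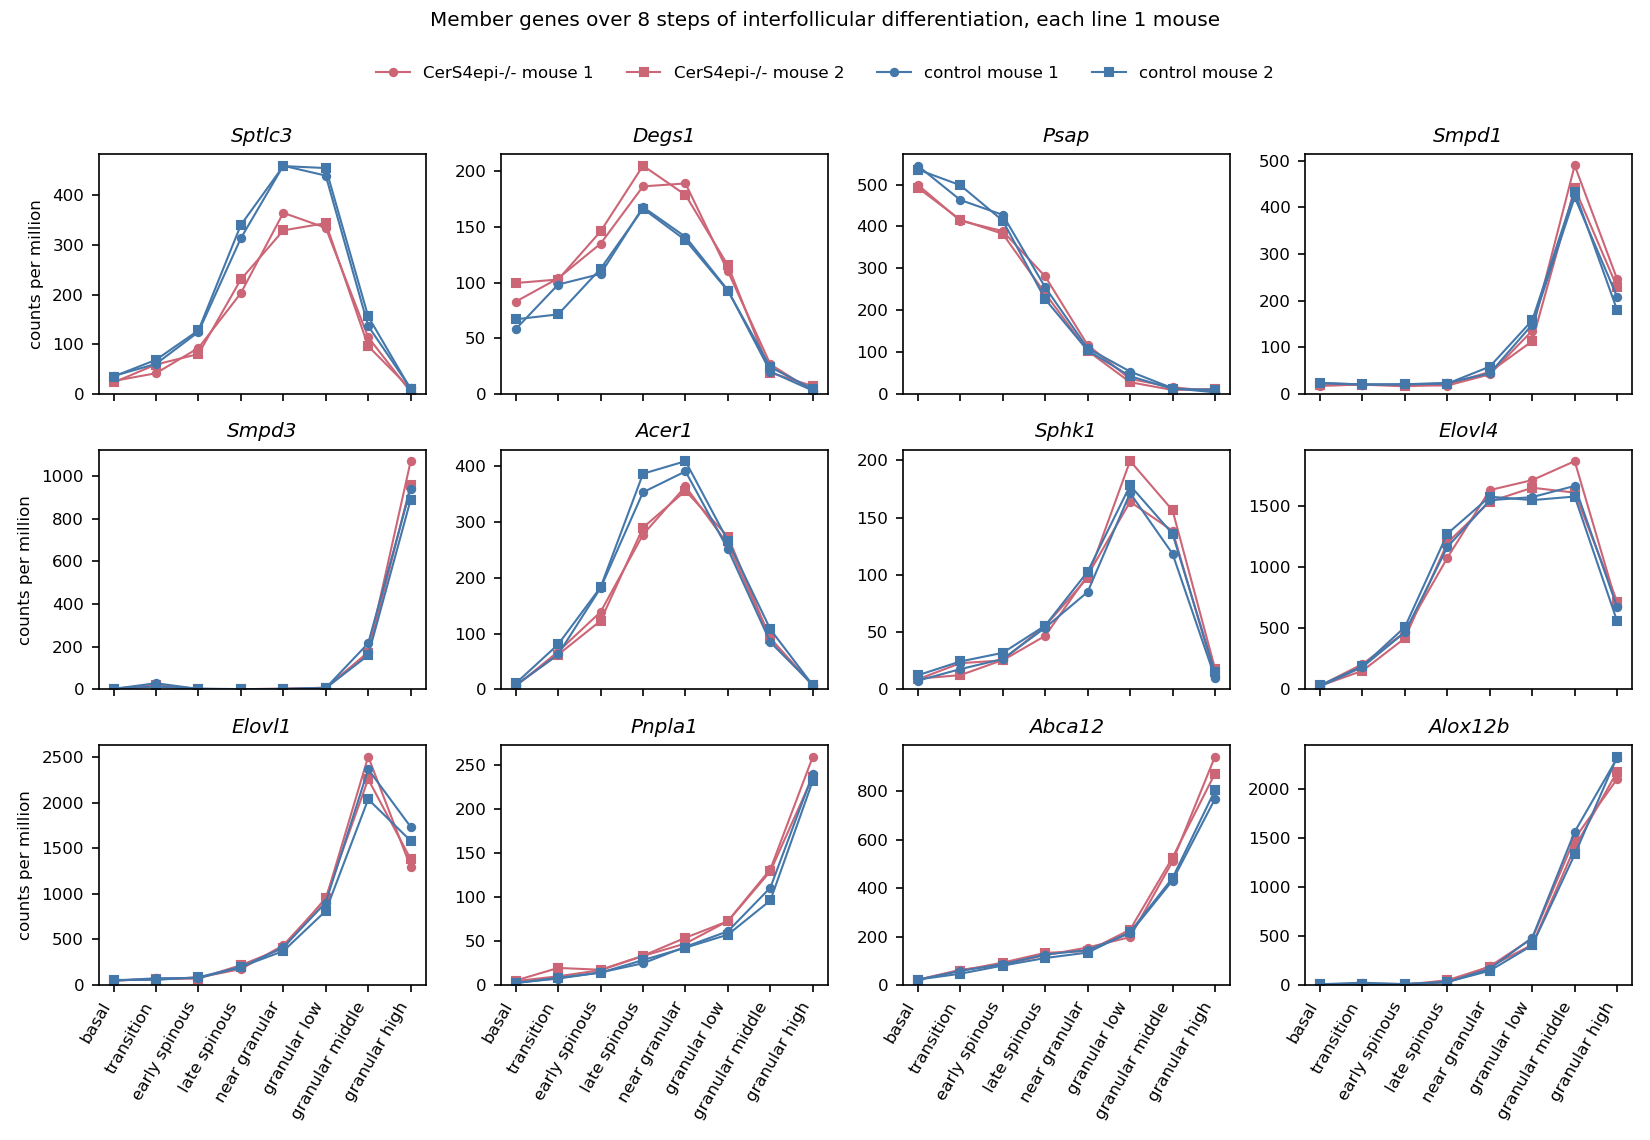
CPM of each step over the 8 steps from basal to the highest granular marker rate, 12 members in separate panels and 1 line per mouse, with control and CerS4epi-/- mice in separate colours and each panel starting at 0. Lines of the 4 mice have similar shapes, with Psap highest in basal cells, Acer1 highest near the granular border and Smpd3 and Alox12b highest in the last step. Their levels spread for some members, such as Sptlc3 at 203 to 340 CPM in step 4 and Degs1 at 58.2 to 99.6 CPM in step 1.

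Degs2 and Sgpp2 gave the largest differences of any member between suprabasal uHF and IFE spinous cells. Against IFE spinous cells 23 members were higher and 7 lower, where 25.5% and 25.2% of all genes were (50.8% in all). These genes, for the phytoceramide desaturase and an S1P phosphatase, gave log2 fold changes of 7.52 ± 0.39 and 6.72 ± 0.32 (adjusted p = 2.97e-15 and 5.69e-15), and among the 9 classes tested both had their highest level in the suprabasal uHF. Smpd3 (3.96 ± 0.20), Sdr9c7 (2.98 ± 0.17), Alox12b (2.56 ± 0.20), Smpd1 (2.36 ± 0.15) and Ugcg (2.10 ± 0.17) were also higher there than in IFE spinous cells. Psap was lower, at -2.03 ± 0.18, and the SPT genes Sptssa and Sptlc3 gave log2 fold changes of -0.99 ± 0.13 and -0.97 ± 0.20. Against basal uHF cells, 31 members were higher and 3 lower in the suprabasal uHF (22.1% and 19.2% of all genes, 41.3% in all). Granular markers were at 10796 to 14471 CPM in this class, against 53918 to 65898 CPM in IFE granular cells.

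In the cells of the outer bulge gate 30 members were higher and 0 lower than in IFE basal cells, where 24.6% of all genes were higher and 23.7% lower (48.3% in all). Ormdl3 had its highest level of all 10 classes there, with 191 to 247 CPM. The inner bulge had 21 members higher and 1 lower (16.3% and 17.2% of all genes, 33.5% in all), and Sgms2 was highest there, with 31.8 to 62.7 CPM against at most 6.01 CPM in any IFE layer. Besides uHF markers, the outer bulge gate held spinous markers at 16208 to 26888 CPM in control and 6549 to 8549 CPM in CerS4epi-/- mice, and their part in these differences was not tested. Basal uHF cells had 17 members higher and 4 lower than IFE basal cells (12.1% and 10% of all genes, 22.1% in all), but in the 2 control mice alone, with 38 and 52 cells, only 2 members were called.

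The sebaceous gland stood apart for chain elongation and hydroxylation, described here without a test. Fa2h, which hydroxylates the fatty acid of sphingolipids, measured 10046 and 3157 CPM in control and 8143 and 8894 CPM in CerS4epi-/- sebaceous cells and no more than 5.16 CPM in any other class of any mouse. Elovl4 measured 27557 CPM in control mouse 1, was not counted among the 3 cells of control mouse 2, and measured 15966 and 15129 CPM in the CerS4epi-/- mice. Slc27a4 measured 890 and 875 against 1414 and 2009 CPM. Elovl7 measured 243 and 21.3 against 1732 and 1112 CPM, so that both CerS4epi-/- mice were above both control mice for these 2 genes. For Slc27a4 this order depends on the TMM scaling of control mouse 2, set by 3 cells with 28110 summed counts. Without that scaling the Slc27a4 values of the groups overlapped. Sgpp2 and Degs2 had no count in the control cells and measured 153 and 120 CPM and 28.4 and 18.1 CPM in the CerS4epi-/- cells. These counts of 0 come from 12 cells with 225655 summed counts in control mouse 1 and 3 cells with 28110 in control mouse 2. The upper limit set by control mouse 2 is loose and that of control mouse 1 closer, and no fold is given. By mean level 13 members were highest in sebaceous gland cells, 23 in IFE granular cells and 1 in each of 5 other classes.

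Between genotypes, 26 of the 40 members that could be tested in at least 1 class differed in at least 1 class. Of these, 17 were higher and 9 lower in CerS4epi-/- mice and none went in both directions. Over all classes 48 of 297 tests passed, 31 higher and 17 lower. The matching share over all genes was not counted for these sums, and a gene tested in several classes can be called in any of them. They are therefore no result about the members, and only the shares per class below have a background. Most of the calls fell in 3 classes. IFE granular cells had 12 members higher and 3 lower of 39, or 38.5% called, against 11.8% of all genes (7.55% higher, 4.27% lower). Suprabasal uHF cells had 10 higher and 0 lower of 39, or 25.6%, against 8.15% (5.39% higher, 2.76% lower). IFE spinous cells had 2 higher and 7 lower of 37, or 24.3%, against 6.66% (3.52% higher, 3.14% lower). The outer bulge had 4 higher and 4 lower of 36, or 22.2%, against 7.99% (3.69% higher, 4.3% lower). In IFE basal cells 3 were higher and 2 lower of 38, or 13.2%, against 7.25% (4.36% higher, 2.89% lower). The inner bulge had 0 higher and 1 lower of 25, or 4%, against 7.24% (4.13% higher, 3.11% lower). Basal uHF cells had 0 of 28 (1.45% of all genes, 0.949% higher and 0.501% lower), T cells 0 of 26 (0.288%, all higher) and Langerhans cells 0 of 29 (0%), with 5, 5 and 4 members under an unadjusted p of 0.05 and 0 called by DESeq2 in each. Genes of the dissociation response were higher in CerS4epi-/- mice in the IFE, at 17382 and 19175 against 15191 to 15765 CPM in basal and 13491 and 13951 against 7879 to 10154 CPM in spinous cells, and fibroblast markers were at 4.99 and 5.69 against 95.7 and 102 CPM in basal cells. IFE basal cells also carried uHF markers at 853 and 1238 against 466 and 385 CPM and outer bulge markers at 444 and 484 against 200.4 and 141 CPM. The part of these markers in the differences was not tested.

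**Figure D3:**
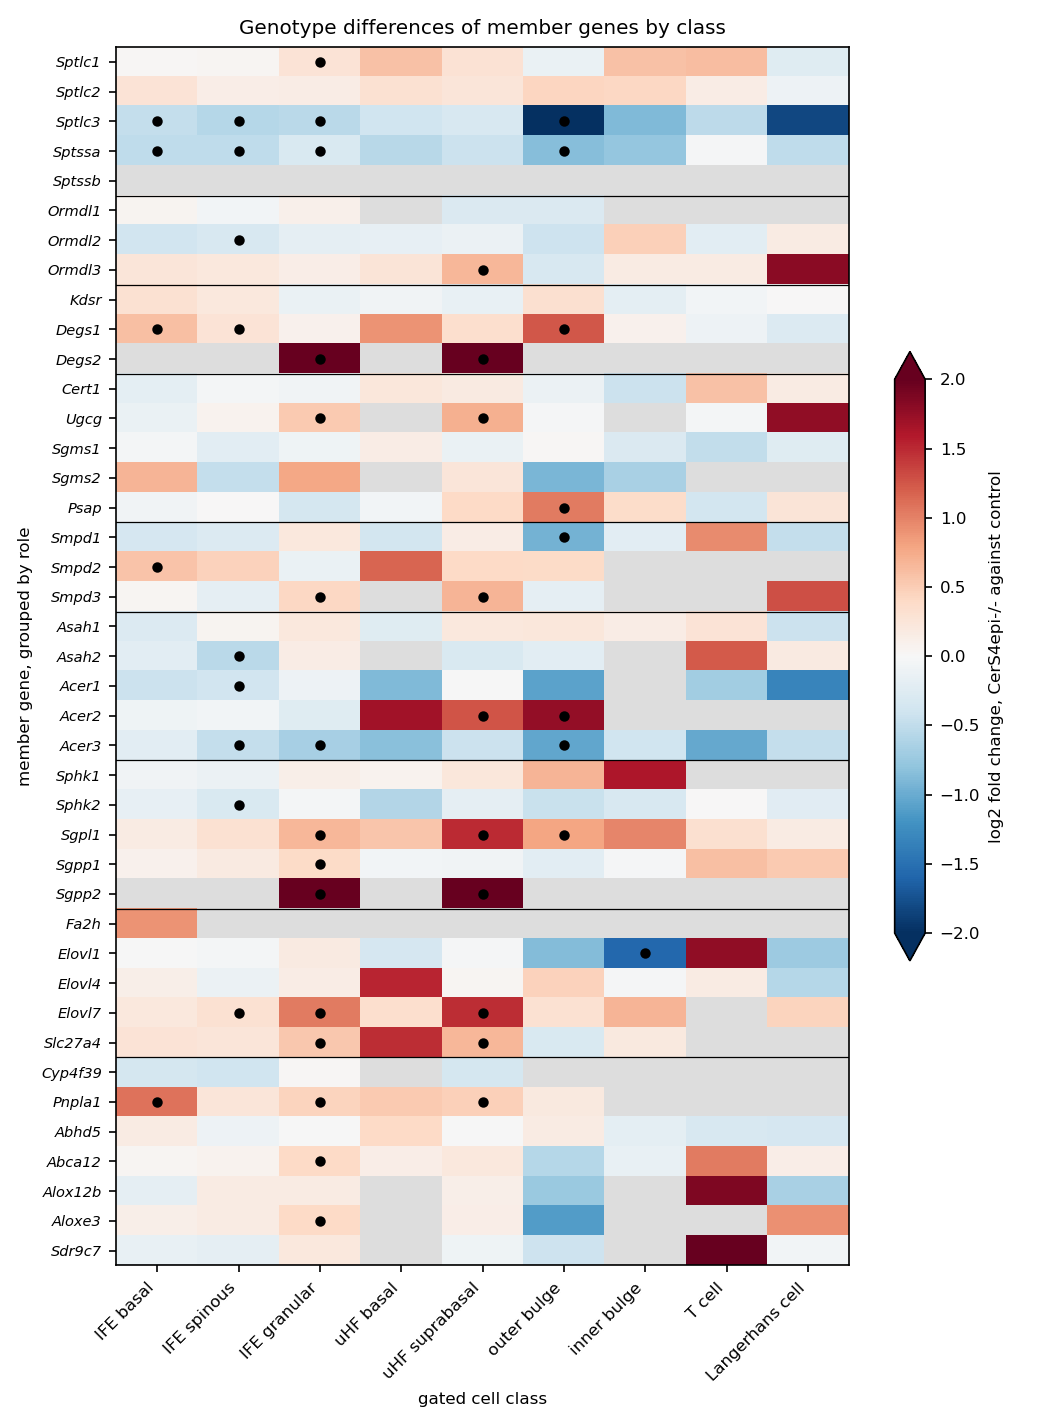
Log2 fold changes of CerS4epi-/- against control mice for the 41 member genes (rows) in the 9 classes tested (columns), red higher and blue lower; grey cells were too low to test and marks show calls at an adjusted p under 0.05. The granular and suprabasal uHF columns hold 12 and 10 higher calls, and Sptlc3 and Sptssa are lower in 4 classes each.

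SPT subunits were the members called in the largest number of classes, 4 of 9 for both Sptlc3 and Sptssa, and always lower in CerS4epi-/- mice. In IFE spinous cells Sptlc3 measured 293 and 304 CPM in control and 198 and 199 CPM in CerS4epi-/- mice, a fall of 1.49-fold (log2 -0.57 ± 0.07, adjusted p = 0.00238). The same cells had Sptssa at 625 and 634 against 465 and 406 CPM (-0.51 ± 0.08, adjusted p = 0.00732). The groups did not overlap for either gene, which adds nothing to the calls that picked them. Without each mouse in turn Sptlc3 gave -0.60 to -0.55 and Sptssa -0.61 to -0.42. Granular IFE cells had Sptlc3 at 311 and 346 against 237 and 211 CPM (-0.53 ± 0.08, adjusted p = 0.00432) and Sptssa 934 and 1104 against 857 and 776 CPM (-0.30 ± 0.08, adjusted p = 0.0489). In IFE basal cells they measured 33.3 and 32.3 against 24.9 and 21.9 CPM (-0.47 ± 0.11, adjusted p = 0.0327) and 194 and 176 against 148 and 110 CPM (-0.51 ± 0.13, adjusted p = 0.0453). Sptlc1, the shared subunit, went the other way in granular cells only, with 177 and 184 against 212 and 221 CPM (0.28 ± 0.07, adjusted p = 0.0367). Sptlc2 was called in no class. The free RNA of the libraries, read from barcodes with 10 to 100 counts, showed the same order. In it Sptlc3 measured 181 and 209 against 118 and 147 CPM and Sptssa 278 and 253 against 149 and 154 CPM. Free RNA came from the same libraries as the cells and is no separate evidence. IFE spinous cells made up 30.9 and 33.0% of control and 21.9 and 19.6% of CerS4epi-/- cells, and their part in it was not tested. Sptssa in granular cells was lost without either CerS4epi-/- mouse or control mouse 2 (-0.20 to -0.37), Sptlc1 without any 1 mouse (0.24 to 0.32), and the basal calls of both genes without control mouse 1, control mouse 2 or CerS4epi-/- mouse 2 (Sptlc3 -0.40 to -0.49, Sptssa -0.32 to -0.57).

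In the cells of the outer bulge gate Sptlc3 showed its largest difference, 172 and 276 CPM in control against 49.9 and 34.6 CPM in CerS4epi-/- mice, a fall of 5.21-fold (log2 -2.38 ± 0.26, adjusted p = 0.000133). Sptssa measured 157 and 239 against 97.6 and 122 CPM (-0.85 ± 0.22, adjusted p = 0.0324). Degs1 measured 74.3 and 66.2 against 158 and 181 CPM (1.24 ± 0.21, adjusted p = 0.00281), Psap 278 and 230 against 530 and 535 CPM (1.04 ± 0.16, adjusted p = 0.00120) and Acer2 14.9 and 23.0 against 73.2 and 52.3 CPM (1.76 ± 0.36, adjusted p = 0.00929). Sgpl1 measured 168 and 129 against 301 and 223 CPM (0.79 ± 0.20, adjusted p = 0.0317). Smpd1 measured 82.8 and 86.3 against 43.8 and 44.96 CPM (-0.94 ± 0.23, adjusted p = 0.0242) and Acer3 59.4 and 74.8 against 34.9 and 29.5 CPM (-1.05 ± 0.27, adjusted p = 0.0334). The makeup of this class differed with genotype in the same libraries. Outer bulge markers were at 3233 to 4098 CPM in control and 2163 to 2557 CPM in CerS4epi-/- mice, and uHF markers at 41739 to 43157 and 34795 to 35099 CPM. Spinous markers were at 16208 to 26888 and 6549 to 8549 CPM, IFE basal markers at 5369 to 5708 and 10246 to 12647 CPM, and inner bulge markers at 3230 and 3263 against 3446 and 7014 CPM. The part of this makeup in the 8 calls was not tested. When the class was split by the ratio of spinous to basal markers, 0 of the 8 calls held on the basal side and 2 on the suprabasal side, Sptlc3 (-1.86, adjusted p = 0.0063) and Sgpl1 (1.59, adjusted p = 0.00245), where Acer2 was too low to test. On the basal side Sptlc3 gave -0.74 (adjusted p = 0.546) and Acer3 turned to 0.60, and on the suprabasal side Psap was -0.00 and Smpd1 turned to 0.16. The basal side held 38 and 22 control against 185 and 181 CerS4epi-/- cells, and the suprabasal side 65 and 46 against 63 and 28. With so few cells, a call lost on 1 side does not show that the difference is absent there. Without control mouse 2, Sptssa (-0.56), Acer3 (-0.90) and Sgpl1 (0.62) were no longer called, without CerS4epi-/- mouse 1 Sptssa (-0.68), Sgpl1 (0.58) and Smpd1 (-0.90), and without CerS4epi-/- mouse 2 Acer3 (-0.93) and Smpd1 (-0.95). In the inner bulge only Elovl1 was called, with 172 and 135 against 37.1 and 63.7 CPM (-1.57 ± 0.34, adjusted p = 0.00705); without CerS4epi-/- mouse 1 it gave -1.23 (adjusted p = 0.0799), and without the 5% of cells with most counts -0.54 and no call. In the inner bulge spinous markers were at 11893 to 12508 CPM in control and 3383 to 5075 CPM in CerS4epi-/- mice, granular markers at 4979 to 5152 and 3280 to 3618 CPM, and uHF markers at 1761 to 3899 and 21317 to 23828 CPM, and their part in the Elovl1 difference was not tested.

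Of 5 genes of S1P turnover, 3 were higher in IFE granular cells (Sgpl1, Sgpp1 and Sgpp2) and 2 in the suprabasal uHF (Sgpl1 and Sgpp2). Sgpl1 measured 152 and 126 CPM in control and 370 and 413 CPM in CerS4epi-/- mice in the suprabasal uHF, a rise of 2.83-fold (log2 1.499 ± 0.12, adjusted p = 6.48e-05). Its level in IFE granular cells was 209 and 198 against 306 and 328 CPM, a rise of 1.58-fold (0.66 ± 0.08, adjusted p = 0.00148). Both calls held without each mouse and under every other setting tried. Its free RNA level, from the same libraries and so no separate evidence, was 108 and 106 against 145 and 173 CPM. Sgpp2 measured 10.4 and 8.04 against 37.8 and 70.9 CPM in the suprabasal uHF (2.53 ± 0.37, adjusted p = 0.00238). Sgpp1, the other phosphatase, was higher in IFE granular cells only, with 611.5 and 559.5 against 716 and 787 CPM (0.38 ± 0.08, adjusted p = 0.0219), and lost its call without CerS4epi-/- mouse 2 (0.30, adjusted p = 0.135). Sphk2 was lower in IFE spinous cells, with 149 and 134 against 112 and 114 CPM (-0.31 ± 0.08, adjusted p = 0.0453), a call lost without control mouse 1 or either CerS4epi-/- mouse (-0.24 to -0.33). Sphk1 was called in no class.

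Degs2 was higher in the same classes as Sgpp2. In the suprabasal uHF it measured 12.0 and 5.36 CPM in control and 40.6 and 71.9 CPM in CerS4epi-/- mice, a rise of 6.15-fold (log2 2.62 ± 0.38, adjusted p = 0.00223). Both genes were, in IFE granular cells, near the limit of the data: Degs2 had 7 and 9 counts against 30 and 41 (2.61 ± 0.43, adjusted p = 0.00633) and Sgpp2 6 and 6 counts against 25 and 58 (3.27 ± 0.63, adjusted p = 0.0119), the latter lost without CerS4epi-/- mouse 2 (2.26, adjusted p = 0.0627). Their granular levels were low, 0.716 to 12.2 CPM on the TMM scale. In the free RNA, on the plain scale, Degs2 measured 0 and 1.92 against 7.85 and 5.33 CPM. Sgpp2 measured 3.14 and 2.16 against 12.8 and 21.3 CPM there. The suprabasal uHF levels of the same genes in CerS4epi-/- mice were above their free level in each mouse. In IFE granular cells the filter that drops genes with low counts let both in only through the CerS4epi-/- mice, where they were higher. This favoured a call in that direction, and both count among the higher granular calls given above. The larger number of uHF cells in the CerS4epi-/- libraries (522 and 685 against 986 and 1111) goes with the free RNA, and its part in the granular difference was not tested. Degs1, the other desaturase, was higher in IFE basal cells, with 53.8 and 61.8 against 79.2 and 94.6 CPM (0.59 ± 0.11, adjusted p = 0.0168), and in IFE spinous cells, with 153 and 152 against 180 and 186 CPM (0.28 ± 0.07, adjusted p = 0.0425). The basal call was lost without control mouse 1 (0.50) or CerS4epi-/- mouse 2 (0.46) and the spinous call without any 1 mouse (0.25 to 0.31).

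Of 4 fatty acid genes tested, 2 were higher in IFE granular cells and 2 in the suprabasal uHF, Elovl7, an elongase of saturated long-chain fatty acids, and Slc27a4 in each. In the suprabasal uHF Elovl7 measured 161 and 129 CPM in control and 365 and 443 CPM in CerS4epi-/- mice, a rise of 2.79-fold (log2 1.48 ± 0.14, adjusted p = 0.000149). In IFE granular cells it measured 76.3 and 78.9 against 161 and 155 CPM, a rise of 2.06-fold (1.05 ± 0.08, adjusted p = 0.000183), and both calls held in every setting tried. In IFE spinous cells the difference was smaller, 145 and 139 against 179 and 168 CPM (0.31 ± 0.07, adjusted p = 0.0342), and was lost without control mouse 2 (0.28) or CerS4epi-/- mouse 1 (0.27). Its free RNA level was also higher, 86.4 and 95.8 against 170 and 180 CPM of the plain total. The granular levels are TMM-scaled, so the 2 sets of values are on different scales. The part of free RNA in the granular difference was not tested. Slc27a4 measured 156 and 136 against 227 and 193 CPM in IFE granular (0.54 ± 0.10, adjusted p = 0.0122) and 50.8 and 61.1 against 88.9 and 86.3 CPM in suprabasal uHF cells (0.67 ± 0.12, adjusted p = 0.00851), the first lost without CerS4epi-/- mouse 1 (0.43, adjusted p = 0.0771). Elovl1 and Elovl4 were called in neither of these classes.

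**Figure D4:**
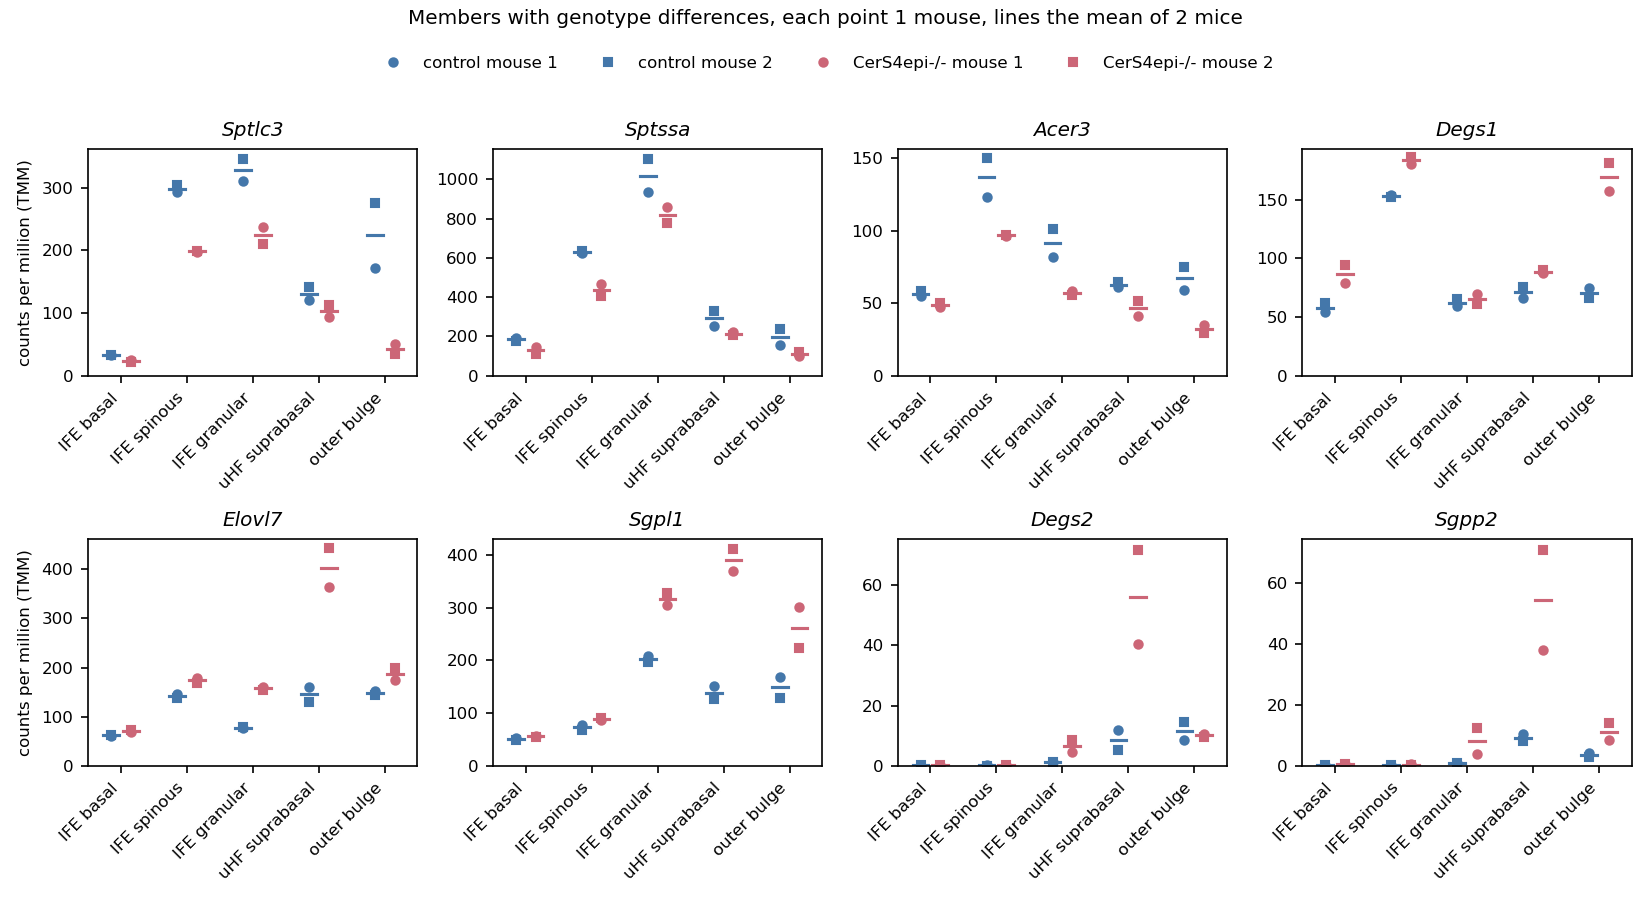
CPM (TMM scale) of 8 members in 5 keratinocyte classes, each point 1 mouse and each line the mean of the 2 mice of a genotype, with axes starting at 0. Sptlc3 and Sptssa sit lower in CerS4epi-/- mice in the IFE layers and outer bulge, and Elovl7 and Sgpl1 sit higher in IFE granular and suprabasal uHF cells. The 8 members shown were picked from those called between genotypes.

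In IFE granular cells 3 of 7 envelope genes, 1 of 5 head group genes and 1 of 3 sphingomyelinases were higher in CerS4epi-/- mice. Abca12 measured 582 and 630 CPM in control and 794 and 778 CPM in CerS4epi-/- mice (0.39 ± 0.07, adjusted p = 0.00715), Aloxe3 457 and 462 against 601 and 597 CPM (0.40 ± 0.07, adjusted p = 0.00624), and Pnpla1 160 and 154 against 218 and 203 CPM (0.44 ± 0.08, adjusted p = 0.00804). Ugcg measured 188 and 178 against 254 and 263 CPM (0.52 ± 0.08, adjusted p = 0.00400) and Smpd3 355 and 326 against 470 and 430 CPM (0.42 ± 0.08, adjusted p = 0.0129). None of these pairs of groups overlapped, but the genes were picked by their calls, so this adds nothing to them. The granular cells of CerS4epi-/- mice also carried more granular markers, 65336 to 65898 against 53918 to 55564 CPM, more uHF markers, 3929 to 4861 against 2862 to 2887 CPM, and more dissociation response genes, 8265 to 8893 against 4489 to 6488 CPM. Within cells of a high granular marker rate 4 of the 41 members were called between genotypes and within cells of a low rate 9, and Smpd3 was lower in CerS4epi-/- mice in the latter (-0.99, adjusted p = 0.00375). Of the 5 genes named here, the high-rate cells kept the call of Ugcg only and the low-rate cells that of no gene in the same direction. All 15 granular calls held in cells without any count of the uHF marker Krt79, but this left out few cells. It kept 888 of 912 and 1201 of 1225 cells in control and 805 of 822 and 655 of 672 in CerS4epi-/- mice. It could therefore hardly change a call and says little about the uHF markers. Without CerS4epi-/- mouse 1, Pnpla1 (0.40) and Smpd3 (0.36) were no longer called.

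In the suprabasal uHF Ugcg, Smpd3 and Pnpla1 were called higher as well, and Abca12 and Aloxe3 were not called. Ugcg measured 59.6 and 60.6 against 88.3 and 108 CPM (0.72 ± 0.14, adjusted p = 0.0107), Smpd3 27.6 and 23.0 against 45.9 and 35.4 CPM (0.68 ± 0.18, adjusted p = 0.0442) and Pnpla1 65.7 and 56.3 against 86.9 and 82.1 CPM (0.47 ± 0.12, adjusted p = 0.0362). Ormdl3 measured 108 and 79.3 against 134 and 164 CPM (0.67 ± 0.16, adjusted p = 0.0261) and Acer2 7.21 and 8.04 against 17.1 and 19.1 CPM (1.26 ± 0.24, adjusted p = 0.0108). Here too uHF markers (24937 to 28728 against 39743 to 47878 CPM) and granular markers (10796 to 10983 against 14009 to 14471 CPM) were higher in CerS4epi-/- mice, and their part was not tested. Of the 10 calls, 8 held in cells of a high granular marker rate, and in cells of a low rate 3 held (Elovl7, Sgpl1 and Sgpp2), 6 did not and Smpd3 was too low to test. Without control mouse 2, Pnpla1 (0.36), Ormdl3 (0.47) and Smpd3 (0.56) were no longer called, and Smpd3 also without CerS4epi-/- mouse 1 (0.50). In IFE basal cells Pnpla1 was at 2.18 and 2.01 against 4.16 and 4.75 CPM (1.09 ± 0.25, adjusted p = 0.0354), a call lost without any 1 mouse (0.99 to 1.19), and Smpd2 at 13.9 and 13.9 against 21.6 and 19.1 CPM (0.56 ± 0.12, adjusted p = 0.0300), lost without either control mouse or CerS4epi-/- mouse 1 (0.47 to 0.57). Of the 5 basal calls, 0 remained without control mouse 1, 1 without control mouse 2 or CerS4epi-/- mouse 2 and 3 without CerS4epi-/- mouse 1.

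Of 5 ceramidases tested, 3 were lower in IFE spinous cells, the alkaline enzymes Acer1 and Acer3 and the neutral enzyme Asah2, whereas Acer2 and Asah1 were not called. Acer1 measured 323 and 339 CPM in control and 255 and 248 CPM in CerS4epi-/- mice (-0.38 ± 0.07, adjusted p = 0.0136), a call that held without each mouse. Acer3 measured 123 and 150 against 96.6 and 96.9 CPM (-0.48 ± 0.10, adjusted p = 0.0225) and Asah2 58.8 and 54.6 against 34.3 and 43.7 CPM (-0.53 ± 0.12, adjusted p = 0.0309). Ormdl2, an SPT inhibitor, was lower in the same cells, 160 and 149 against 124 and 121 CPM (-0.32 ± 0.07, adjusted p = 0.0314). In IFE granular cells Acer3 was lower as well, 81.9 and 101 against 58.7 and 55.7 CPM (-0.66 ± 0.11, adjusted p = 0.00582). The count of spinous calls fell from 9 to 3 without CerS4epi-/- mouse 1, where Acer3 (-0.47), Asah2 (-0.35) and Ormdl2 (-0.33) were among those lost. Acer3 was also lost without control mouse 2 (-0.33), and Ormdl2 without control mouse 1 (-0.27) or CerS4epi-/- mouse 2 (-0.31). Spinous cells of CerS4epi-/- mice were fewer, 1971 and 1480 against 2617 and 2995, and had more counts per cell, with medians of 5370 and 4588 against 4276 and 3961.

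Whether a genotype difference itself changed between layers was tested in 1 fit over the IFE. Between granular and basal cells the difference changed for 9 of 40 members, 5 upward and 4 downward, where 7.56% of all genes did (4% upward, 3.56% downward), and between granular and spinous cells for 5, 4 upward and 1 downward (3.41%; 2.5% upward, 0.911% downward). Between spinous and basal cells it changed for 0 (1.71% of all genes, 0.78% upward and 0.925% downward; 6 members under an unadjusted p of 0.05). Elovl7 had the largest gain at both, 0.85 ± 0.10 over basal (adjusted p = 0.000157) and 0.75 ± 0.09 over spinous cells (adjusted p = 0.000629), and both held without each mouse. Without control mouse 2 the counts were 1 and 1, without control mouse 1 4 and 1, and without CerS4epi-/- mouse 1 4 and 1. No such change was called for Sptlc3 or Sptssa.

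Of 68 other genes of sphingolipid turnover, S1P signalling and very long chain fatty acid synthesis, 10 of 50 tested were higher and 0 lower in IFE granular cells, or 20% called, against 11.8% of all genes. In the suprabasal uHF 7 of 47 were higher and 2 lower, or 19.1% against 8.15%, and in outer bulge cells 2 of 40 higher and 5 lower, or 17.5% against 7.99%. In IFE basal cells 6 of 52 were higher and 0 lower, or 11.5% against 7.25%, and in IFE spinous cells 0 of 51 higher and 4 lower, or 7.84% against 6.66%, a share near that of all genes. None of those tested passed in basal uHF, inner bulge, T or Langerhans cells by edgeR, where 2, 4, 2 and 2 of them were under an unadjusted p of 0.05. The 5 with the largest differences were these. S1pr3, an S1P receptor, measured 0.908 and 0.0911 against 5.85 and 4.65 CPM in IFE basal cells (3.38 ± 0.51, adjusted p = 0.00692). Gm2a, the GM2 activator of lysosomal glycolipid breakdown, measured 8.41 and 6.43 against 28.8 and 39.4 CPM in the suprabasal uHF (2.17 ± 0.27, adjusted p = 0.000996). In the outer bulge Hacd1, a dehydratase of fatty acid elongation, measured 4.24 and 5.75 against 22.7 and 26.5 CPM (2.28 ± 0.55, adjusted p = 0.0227). In the same cells Plpp1, a lipid phosphate phosphatase, measured 34.0 and 25.9 against 8.32 and 5.16 CPM (-2.13 ± 0.43, adjusted p = 0.00777) and Elovl5, a polyunsaturated elongase, 14.9 and 40.3 against 7.77 and 3.69 CPM (-2.11 ± 0.55, adjusted p = 0.0324). The outer bulge values carry the shift in markers given above. The 5 genes were picked by the size of the difference, and several rest on few counts. In control against CerS4epi-/- mice S1pr3 had 10 and 1 against 76 and 44 counts and Hacd1 2 and 2 against 41 and 36. Plpp1 had 16 and 9 against 15 and 7 counts and Elovl5 7 and 14 against 14 and 5. These 4 genes passed the filter that drops genes with low counts only through the genotype where each was higher. That was CerS4epi-/- for S1pr3 and Hacd1 and control for Plpp1 and Elovl5, which favoured the direction called.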

How the data were processed

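The authors deposited, for each of 4 mice, a matrix of estimated counts per gene and barcode: reads were trimmed with fastp 0.23.2 and aligned and counted with STAR 2.7.10a (STARsolo) on GRCm39 with Gencode annotation, reads of several genes being shared by expectation maximization, with no cell filter. A shared read therefore gives a fraction of a count, which for the members was most common in Sptssb. Intronic reads of the right strand were included.

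Barcodes needed 1200 counts or more and no more than 20% of them mitochondrial. Of the 34150 cells, 31772 were assigned to 10 classes by marker genes; 2378 stayed unassigned. Limits of the gates were chosen after seeing the data, and 792 of 12694 suprabasal interfollicular cells lay within 1 log2 unit of the granular limit. Classes were named from markers, not taken from an annotation of the authors, so shares of cells may differ from other groupings. No doublet caller was run; cells passing both the T cell and Langerhans gates were unassigned, and leaving out the 5% of cells with most counts was an alternative. Counts were summed per mouse and class, rounded, and tested with edgeR 4.0.16 (filterByExpr, TMM, quasi-likelihood, Benjamini-Hochberg over all genes of a fit) in the 9 classes where each mouse had 10 cells or more; classes and interactions were fitted with the mouse as a block. SE is the absolute log2 fold change divided by the square root of F. The spread is between 2 mice per genotype. Correlations of same-numbered mice's deviations lay between -0.063 and 0.072, so the numbers do not pair mice. Intervals and levels cover counting error only where few counts are given. Simulated counts were used to try the edgeR genotype test in IFE granular and outer bulge cells only. They were also used for the granular against spinous contrast and the granular against basal interaction. The simulation gave all genes a common spread and planted changes larger than most genotype differences called here. It therefore gives no check of those differences.

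The member genes, the lists and the tests were chosen with earlier results of these data known. Full values are given for each member called between genotypes, and for each called between IFE layers by a log2 fold change of 1 or more; of the other pathway genes (68 of the listed names were found), the 5 with the largest called difference are named. Promoters and coordinates were read from GRCm39 with its annotation; protein sequences were not used here. The alternatives were to leave out each mouse, to block on replicate number, to tighten the gates, to ask for 2000 counts, to lower the mitochondrial limit to 10%, to drop the filter on low counts, and to use DESeq2 1.42.0 or only its size factors.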

Additional observations from a re-analysis of the deposited data

Results flagged for a closer look

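The genotype difference of 9 members changed between IFE granular and IFE basal cells by the interaction test of the edgeR fit, given as the log2 difference in granular minus that in basal cells. It was higher in granular cells for Elovl7 (0.85), Ugcg (0.66), Smpd1 (0.56), Asah1 (0.50) and Sgpl1 (0.49), and lower for Smpd2 (-0.69), Degs1 (-0.48), Acer3 (-0.44) and Kdsr (-0.44). Between granular and spinous cells it was higher for Elovl7 (0.75), Asah2 (0.70), Smpd1 (0.50) and Sgpl1 (0.37) and lower for Kdsr (-0.34). Smpd1, Asah1 and Kdsr passed these tests without a genotype call of their own in any IFE layer. Granular markers were at 65336 to 65898 CPM in CerS4epi-/- and 53918 to 55564 CPM in control granular cells, and their part in these changes was not tested.

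A signal outside the gated cells was found in barcodes of 10 to 100 counts, which hold mostly free RNA. There Sgpp2 averaged 17.1 CPM in CerS4epi-/- against 2.65 CPM in control mice, Fa2h 47.4 against 12.1 CPM and Elovl7 175 against 91.1 CPM. Members were listed only where both CerS4epi-/- mice lay well above both control mice, so direction and lack of overlap follow from that rule. Members that were lower could not be listed, such as Elovl1 at 341 and 334 CPM in control and 231 and 226 CPM in CerS4epi-/- mice. These comparisons were not tested.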

How the results depend on the processing

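Of the 48 called genotype differences, 9 held in every setting tried, 22 without each mouse in turn and 32 with DESeq2. None turned its sign in a planned setting. The numbers of members called between genotypes changed as follows. In IFE basal cells (5) they were 2 with DESeq2, 3 at a minimum of 2000 counts and 1 at a mitochondrial limit of 10%. In IFE spinous cells (9) they were 14 with the replicate block and 5 with stricter gates or without the 5% of cells with most counts. In IFE granular cells (15) 9 remained without those 5%. In the outer bulge (8) 3 were called with DESeq2. In the inner bulge (1) they were 0 with DESeq2 or without the 5%, 3 at 2000 counts, 2 at 10% mitochondrial counts or with the block, and 4 without the filter. T cells gave 3 without the filter and 3 with the block, and basal uHF 1 with the block, where the unblocked counts were 0. The replicate block was fitted because mice share numbers, which do not pair them. Stricter gates left too few basal uHF cells to test. Settings chosen after seeing the data split classes by marker rates. IFE granular cells gave 4 at high and 9 at low marker rates, suprabasal uHF cells (10) 5 at a low granular rate, 3 of them among those 10, and outer bulge cells 1 on the basal and 4 on the suprabasal side. In these, Smpd3 in IFE granular cells of low marker rate was -0.99, Acer3 on the basal side of the outer bulge 0.60, and Psap and Smpd1 on its suprabasal side -0.0022 and 0.16. Members called between basal uHF and IFE basal cells (21) were 2 in control mice only. Interactions of granular against basal cells (9) were 3 without the 5%, and of granular against spinous cells (5) 1 without the 5%, 2 at 10% mitochondrial counts, 3 with stricter gates and 13 without the filter; of spinous against basal cells (0) 1 without the filter. Other pathway genes without the filter numbered 10 in IFE spinous (4) and 1 in Langerhans cells (0). Leaving out 1 mouse gave 0 to 3 in IFE basal, 3 to 7 in IFE spinous, 10 to 14 in IFE granular, 0 to 2 in basal uHF, 8 to 13 in suprabasal uHF, 6 to 12 in outer bulge, 0 to 3 in inner bulge, T and Langerhans cells, 11 to 20 for basal uHF against IFE basal, 16 to 21 for inner bulge against IFE basal, and 1 to 6, 1 to 4 and 0 to 0 for the interactions. The cause of these changes was not tested. Classes of few cells limit what could be called.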
